A study of Mus musculus with 6 samples.

Results

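The mRNAs described here encode the RNA helicases, the adaptors and the export receptor that work beside THO when an mRNA leaves the nucleus. They are Ddx39b, Ddx39a, Alyref, Chtop, Poldip3, Sarnp, Zc3h11a, Nxf1 and Nxt1, 9 genes of 27669 named on the array. Probes were taken by gene name: every probe whose gene name in the scanner files is the symbol or an older one (Bat1a for Ddx39b, Ddx39 for Ddx39a, Thoc4 or Refbp2 for Alyref, 2500003M10Rik for Chtop, 1110005A23Rik for Sarnp) was included. That gave 18 probes. The 2 probes named Refbp2 belong in the RefSeq gene table to Alyref2, a paralog of Alyref, so they are given apart from it, which left 16 probes of the 9 genes.

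Total RNA was taken from the mouse embryonic stem cell line J1, 96 hours after siRNA transfection. The 3 groups of 2 arrays each had received an siRNA against Thoc2, an siRNA against Thoc5, or a non-targeting siRNA (NT). All cells were kept in ESGRO medium until the transfection, which took place in M10 medium, so the NT cells share every step but the siRNA target. The labels do not say whether arrays of a group came from separate cultures, so the spread between arrays may be technical. All arrays come from 1 cell line. The errors below are moderated by limma, which draws the spread of each gene toward that of all genes. An error can thus exceed the spread between a gene's own arrays. For Alyref the SD within groups was 0.01 to 0.03 and the error 0.13.

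THO is a complex that joins an mRNA while it is being made, and with its partners it forms TREX. Within TREX the helicase Ddx39b (UAP56) uses ATP to load adaptor proteins such as Alyref onto the mRNA. The adaptors in turn hand the mRNA to Nxf1, which with its small partner Nxt1 carries it through the nuclear pore. Ddx39a is a close paralog of Ddx39b, and Chtop, Poldip3, Sarnp and Zc3h11a are further proteins that associate with TREX. An array of total RNA measures how much of each mRNA a culture holds. It measures neither the proteins nor export, and a lower level per cell cannot be told apart from fewer cells of a type that express the gene.

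Each level rests on 60-base probes. Printed here are those of Ddx39b, Ddx39a and Nxf1, the brightest and dimmest of Zc3h11a, and those named Refbp2. The probes of Alyref, Chtop, Poldip3, Sarnp and Nxt1 are not printed, although those of Sarnp differed in size and those of Nxt1 in sign. Coordinates are those of the scanner files, build mm7, and the sequences are copied from the same files. For Ddx39b, one probe (A_51_P388099, chr17:33349453-33349629, plus strand) spans 177 bases of genome and so covers 117 bases that the probe itself lacks. Its last codons end in the stop codon, shown in capitals. The other (A_52_P635776, chr17:33343229-33343288, plus strand) lies 6224 bases upstream, start to start. It holds the codons of the DECD box, the motif that gives this helicase family its second name, in capitals.
A_51_P388099 (Ddx39b): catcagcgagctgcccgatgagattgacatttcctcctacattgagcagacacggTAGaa
A_52_P635776 (Ddx39b): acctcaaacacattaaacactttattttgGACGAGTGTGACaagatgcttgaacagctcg
Ddx39a has 1 probe (A_51_P288162, chr8:82301135-82301194, plus strand), and so has Nxf1 (A_51_P356229, chr19:8444489-8444697, plus strand), whose probe spans 209 bases of genome.
A_51_P288162 (Ddx39a): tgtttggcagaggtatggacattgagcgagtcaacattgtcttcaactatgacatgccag
A_51_P356229 (Nxf1): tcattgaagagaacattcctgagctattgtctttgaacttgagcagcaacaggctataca
Zc3h11a has 3 probes. The brightest (A_51_P235117, chr1:133522518-133522577, minus strand) and the dimmest (A_52_P243090, chr1:133527908-133527967, minus strand) lie 5390 bases apart.
A_51_P235117 (Zc3h11a): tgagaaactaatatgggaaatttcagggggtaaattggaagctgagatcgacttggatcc
A_52_P243090 (Zc3h11a): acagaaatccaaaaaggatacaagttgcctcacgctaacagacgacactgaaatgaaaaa
The probes named Refbp2 lie 551 bases apart, start to start, on opposite strands: A_52_P337236 at chr1:171474304-171474363 on the plus strand and A_52_P171659 at chr1:171473753-171473812 on the minus strand.
A_52_P337236 (Alyref2): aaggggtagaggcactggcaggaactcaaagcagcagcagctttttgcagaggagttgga
A_52_P171659 (opposite strand): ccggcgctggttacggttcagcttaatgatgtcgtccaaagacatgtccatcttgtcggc

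A level below is the log2 signal of a probe after subtracting the 75th percentile of its array, so 0 is the signal at that percentile, and a difference of 1 is a doubling of signal. Levels of different genes come from different probes and cannot be ranked against each other. Of the 16 probes 15 were kept because both arrays of some group were well above background; the exception, A_52_P113487 of Poldip3, was so on no array. A gene is given by its brightest such probe.

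The arrays differed in brightness. At the 75th percentile the signal came to 716 and 733 on the Thoc2 siRNA arrays, 306 and 738 on the Thoc5 siRNA arrays, and 817 and 905 on the NT arrays (replicates 1 and 2). Replicate 1 of the Thoc2 siRNA was scanned on another day than the other 5 arrays and had 880 outlier spots against 63 to 155 on the others, and replicate 1 of the Thoc5 siRNA was the dimmest array; each was alone on its slide. Pearson correlations of levels between arrays ran from 0.964 to 0.976 within groups and from 0.953 to 0.974 between groups. All 9 embryonic stem cell markers on the array were well above background on all 6 arrays. Their mean level was 5.04 and 4.95 with Thoc2 siRNA, 4.98 and 4.85 with Thoc5 siRNA, and 5.33 and 5.27 with NT siRNA, so it was lower on all 4 knockdown arrays; its part in the values below was not tested. The mean level of 6 primitive endoderm markers was -2.33 and -2.04 with Thoc2 siRNA, -0.69 and -2.41 with Thoc5 siRNA, and -0.82 and -3.87 with NT siRNA, with no order by group. All 6 were well above background on every array. The mean level of the 5 kept trophectoderm markers of 6 was -0.15 and -0.29 with Thoc2 siRNA, 0.07 and 0.26 with Thoc5 siRNA, and -0.21 and -0.17 with NT siRNA, so both Thoc5 siRNA arrays were highest; its part was not tested either. Of the 6, 5 were well above background on all 6 arrays. Of 8 fibroblast markers 4 were well above background on all 6 arrays and 0 were on none. The mean level of the 7 kept was -3.47 and -3.34 with Thoc2 siRNA, -4.44 and -3.79 with Thoc5 siRNA, and -3.59 and -3.81 with NT siRNA. Both Thoc2 siRNA arrays were thus highest, and the part of this in the values below was not tested. The mean levels of 3 neural markers (-2.31 to -1.73) and of 2 kept mesoderm markers (-4.11 to -2.70) had no order by group. The siRNA targets themselves differed from NT by -0.86 ± 0.28 (Thoc2 mRNA with Thoc2 siRNA) and -1.27 ± 0.27 (Thoc5 mRNA with Thoc5 siRNA; log2, SE, n = 2 arrays per group).

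With Thoc2 siRNA, 7 of the 9 mRNAs lay above NT (55.6% of all genes did) and 2 below, and the helicases and Zc3h11a lay highest above it. Ddx39b was at 153% of the NT level (95% interval 105% to 224%), Ddx39a at 139% (106% to 182%) and Zc3h11a at 138% (104% to 184%). With Thoc5 siRNA 6 of the 9 lay above NT, as did 43.2% of all genes. Nxf1 (142%, 103% to 195%) and Ddx39a (136%, 104% to 178%) lay highest there, and Sarnp lay lowest at 66.1% (48.0% to 91.0%). None of the 9 passed at an adjusted p of 0.05 (limma, Benjamini-Hochberg over all genes), and neither did any of the 19305 or 19306 genes tested in either comparison, a background of 0%.

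**Figure D1:**
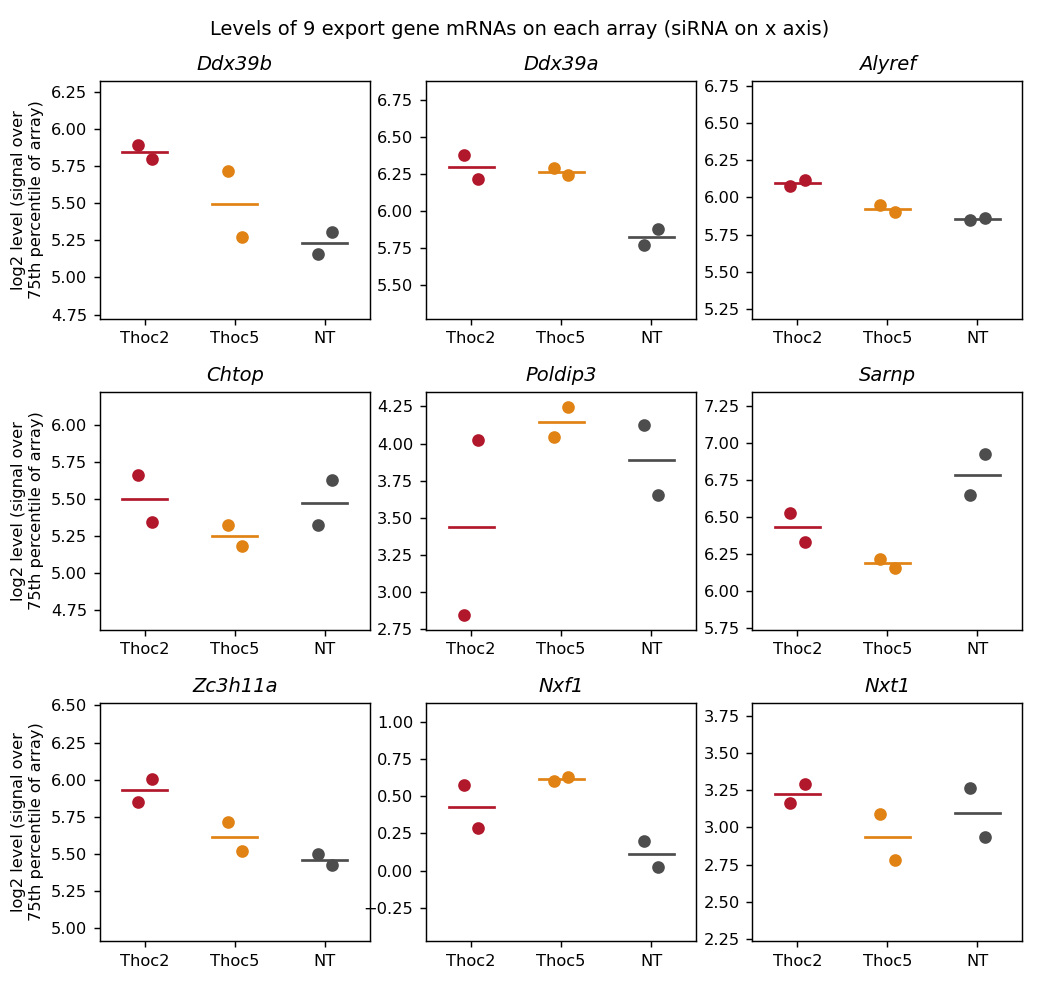
Level of each of the 9 mRNAs on each array (log2 signal relative to the 75th percentile of the array), by siRNA, with points for single arrays and a line for the mean of 2; all panels have the same height in log2 units but each its own range. For Ddx39a, Alyref, Nxf1 and Zc3h11a all 4 knockdown arrays lie above both NT arrays, for Sarnp all 4 lie below, and Poldip3 has 1 low Thoc2 siRNA array at 2.85.

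Ddx39b, the helicase that loads adaptors, had levels of 5.89 and 5.80 with Thoc2 siRNA, 5.72 and 5.27 with Thoc5 siRNA, and 5.15 and 5.30 with NT siRNA. Both Thoc2 siRNA arrays were above all others, while the Thoc5 siRNA arrays lay apart from each other and the lower one lay inside the NT range. The difference from NT was 0.61 ± 0.21 with Thoc2 siRNA (adjusted p = 0.306) and 0.27 ± 0.21 with Thoc5 siRNA (adjusted p = 0.553; limma, log2, SE, n = 2 arrays per group). The DECD box probe ran in the same direction, with levels of 3.22 and 2.74 with Thoc2 siRNA, 2.69 and 2.50 with Thoc5 siRNA, and 2.38 and 1.83 with NT siRNA. On that probe all 4 knockdown arrays were above both NT arrays, and the differences were 0.87 ± 0.28 and 0.49 ± 0.28. These values depended on the processing: with normexp background correction Ddx39b was at 0.03 with Thoc2 siRNA and -0.06 with Thoc5 siRNA. That setting also starts from the mean spot signal instead of the processed one and adds an offset of 50. Which of these changes moved the values was not tested. Under that correction the median of all genes stood at 0.29 and 0.24, against 0.06 and -0.09 as reported, so that relative to all genes Ddx39b was at -0.26 and -0.30.

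Ddx39a, its paralog, had levels of 6.38 and 6.21 with Thoc2 siRNA, 6.29 and 6.24 with Thoc5 siRNA, and 5.77 and 5.88 with NT siRNA. All 4 knockdown arrays were above both NT arrays, and the knockdown groups overlapped each other. The difference from NT was 0.47 ± 0.15 with Thoc2 siRNA (adjusted p = 0.287) and 0.44 ± 0.15 with Thoc5 siRNA (adjusted p = 0.217, limma). For both knockdowns against NT it was 0.46 ± 0.13 (adjusted p = 0.175, n = 4 and 2 arrays). With normexp it was 0.29 and 0.24 in the single comparisons, which equals the median of all genes in each to 2 decimals.

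Alyref, the adaptor that Ddx39b loads, had levels of 6.08 and 6.12 with Thoc2 siRNA, 5.95 and 5.90 with Thoc5 siRNA, and 5.85 and 5.86 with NT siRNA. The 3 groups did not overlap, with Thoc2 siRNA highest and NT lowest. The distances were small, however: 0.24 ± 0.13 with Thoc2 siRNA (adjusted p = 0.456) and 0.07 ± 0.13 with Thoc5 siRNA (adjusted p = 0.817, limma). With normexp both turned negative, to -0.23 and -0.27.

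Its paralog Alyref2 had levels of 2.73 and 2.59 with Thoc2 siRNA, 2.76 and 2.75 with Thoc5 siRNA, and 2.43 and 2.30 with NT siRNA on the plus-strand probe. All 4 knockdown arrays were above both NT arrays. The differences were 0.30 ± 0.15 with Thoc2 siRNA (adjusted p = 0.422) and 0.39 ± 0.15 with Thoc5 siRNA (adjusted p = 0.254, limma). The 2 knockdown groups stood in the other order than for Alyref, by 0.09 ± 0.15 (Thoc5 minus Thoc2). Their arrays did not overlap (also so for 13.2% of all genes in this direction), but the difference was smaller than its SE.

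Zc3h11a, a zinc finger protein found with TREX, had levels of 5.85 and 6.01 with Thoc2 siRNA, 5.71 and 5.52 with Thoc5 siRNA, and 5.50 and 5.42 with NT siRNA. The 3 groups did not overlap, with Thoc2 siRNA highest. The difference from NT was 0.47 ± 0.16 with Thoc2 siRNA (adjusted p = 0.307) and 0.16 ± 0.16 with Thoc5 siRNA (adjusted p = 0.652, limma). Its 3 probes ran in the same direction in both comparisons. They gave 0.37 to 0.54 with Thoc2 siRNA and 0.16 to 0.47 with Thoc5 siRNA, the highest value of each range coming from the dimmest probe, A_52_P243090. With normexp the gene was at 0.31 and 0.0025, or at 0.02 and -0.24 relative to the median of all genes, so that the relative value turned negative with Thoc5 siRNA.

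Sarnp, an RNA-binding adaptor related to yeast Tho1, lay lowest of the 9 relative to NT with Thoc5 siRNA. Its levels were 6.53 and 6.33 with Thoc2 siRNA, 6.22 and 6.16 with Thoc5 siRNA, and 6.65 and 6.92 with NT siRNA. The 3 groups did not overlap and NT was highest. The difference was -0.35 ± 0.17 with Thoc2 siRNA (adjusted p = 0.423) and -0.60 ± 0.17 with Thoc5 siRNA (adjusted p = 0.184, limma). The second probe, 90 bases from the first, gave -0.02 ± 0.24 and -0.29 ± 0.24, and its levels of 5.57 and 5.17 with Thoc2 siRNA overlapped those of 5.60 and 5.18 with NT siRNA. The files list further predicted transcripts for these probes, so signal from near-identical copies cannot be told apart from Sarnp. With normexp the distances below NT were larger, at -0.87 and -0.97, or at -1.16 and -1.21 relative to the median of all genes. The shift was not particular to Sarnp: relative to that median the other members also stood lower than as reported. Poldip3 was at -1.36 and -0.39, Chtop at -0.63 and -0.75, Nxt1 at -0.54 and -0.63, and Alyref at -0.52 in both comparisons. The cause of this shift was not tested.

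Chtop, an adaptor whose arginines are methylated and which helps to activate the helicase, had levels of 5.66 and 5.35 with Thoc2 siRNA, 5.32 and 5.18 with Thoc5 siRNA, and 5.32 and 5.63 with NT siRNA. The Thoc2 siRNA and NT arrays covered almost the same range, and the Thoc5 siRNA arrays sat at or below its lower end. The differences were 0.03 ± 0.20 and -0.22 ± 0.20, and the second probe gave 0.03 ± 0.22 and -0.06 ± 0.22.

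Poldip3, an adaptor also known as SKAR that links the exon junction complex to S6 kinase, had levels of 2.85 and 4.03 with Thoc2 siRNA, 4.04 and 4.24 with Thoc5 siRNA, and 4.13 and 3.66 with NT siRNA. A single array, Thoc2 siRNA replicate 1, was far below the others. The difference with Thoc2 siRNA was -0.46 ± 0.45 with that array and 0.13 without it, so its direction rests on 1 array. With Thoc5 siRNA it was 0.25 ± 0.45.

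Nxf1, the receptor that carries mRNA through the pore, had levels of 0.58 and 0.28 with Thoc2 siRNA, 0.60 and 0.63 with Thoc5 siRNA, and 0.20 and 0.02 with NT siRNA. All 4 knockdown arrays were above both NT arrays and the Thoc5 siRNA arrays were highest. The difference was 0.32 ± 0.17 with Thoc2 siRNA (adjusted p = 0.455) and 0.51 ± 0.17 with Thoc5 siRNA (adjusted p = 0.226, limma). Nxf1 kept a positive difference in every setting tried for both comparisons, between 0.09 and 0.47 with Thoc2 siRNA and between 0.40 and 0.61 with Thoc5 siRNA. Some of these settings could not move the difference, such as another variance model. The lowest value, 0.09, came from a slide shared with an NT array, where the median of all genes was also 0.09. Relative to the median of all genes under normexp Nxf1 was at 0.14 and 0.16.

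Nxt1, which pairs with Nxf1, did not share that order. It had levels of 3.16 and 3.29 with Thoc2 siRNA, 3.09 and 2.78 with Thoc5 siRNA, and 3.26 and 2.94 with NT siRNA. The NT arrays overlapped both knockdown groups. The differences were 0.13 ± 0.20 and -0.17 ± 0.20, and with Thoc5 siRNA the second probe, 320 bases from the first, had the other sign at 0.09 ± 0.17.

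**Figure D2:**
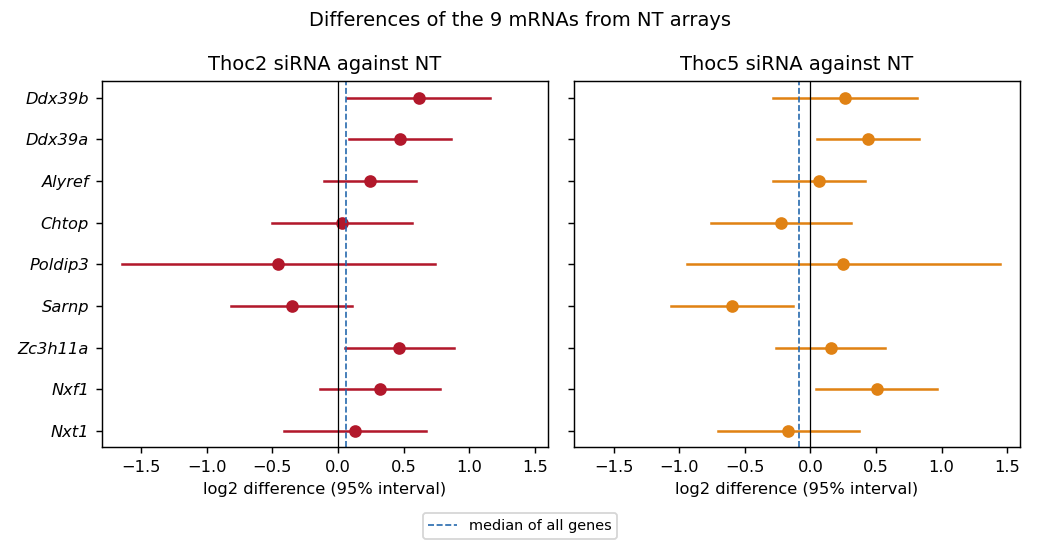
Log2 difference of each of the 9 mRNAs from NT, with 95% intervals of the limma fit (n = 2 arrays per group); the solid line is 0 and the dashed line the median of all genes. The intervals of Ddx39b, Ddx39a and Zc3h11a lie above 0 with Thoc2 siRNA, those of Ddx39a and Nxf1 lie above 0 with Thoc5 siRNA, and that of Sarnp lies below 0 with Thoc5 siRNA.

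Counted against the background of all genes, 3 of 9 had an unadjusted p under 0.05 and a higher level with Thoc2 siRNA (Ddx39b, Ddx39a, Zc3h11a), where 8.1% of all genes did, and 0 of 9 a lower one, where 6.5% did. All Thoc2 siRNA arrays were above all NT arrays for 5 of 9 (26.1% of all genes) and below for 1 (20.9%). The median difference of the 9 was 0.24, and that of all genes 0.06. With Thoc5 siRNA 2 of 9 were higher by the same rule (Ddx39a, Nxf1; 7.45% of all genes) and 1 lower (Sarnp; 12.1%). The arrays did not overlap for 4 above NT (21.7%) and 2 below (31.2%), and the medians were 0.16 for the 9 and -0.09 for all genes. Both knockdowns against NT gave 2 higher (8.88%) and 1 lower (10.4%), with 4 (14.3%) and 1 (16.3%) that did not overlap. The 3 comparisons share the NT arrays, so they are not independent of each other.

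These counts moved with the processing, in both directions. With an intensity trend and robust variances 4 of 9 were higher and 1 lower with Thoc2 siRNA, at an unadjusted limma p under 0.05. Of 19305 genes 3191 had such a p there, 1601 of them higher. For both knockdowns against NT 4 were higher in that setting, with quantile normalization and with cyclic loess, against 2 as reported. Of 19305 genes 1847, 1540 and 1735 were higher in these settings, against 1715 as reported. The settings that follow gave fewer such calls. With no filter on dim probes 7 and 6 of 9 lay above NT, and at an unadjusted p under 0.05 0 were higher in both comparisons and 1 lower, with Thoc5 siRNA. Of all genes 2515 of 27668 and 3261 of 27669 had such a p, 1587 and 1438 of them higher. With normexp 4 of 9 lay above NT with Thoc2 siRNA and 3 of 9 with Thoc5 siRNA, and the medians of the 9 were -0.23 and -0.15. None of the 9 had an unadjusted p under 0.05 in either comparison, and 838 of 19305 and 983 of 19306 genes did. Fits that leave 1 array in a group are given here by their differences only. Without Thoc2 siRNA replicate 1, 7 of 9 were above NT with Thoc2 siRNA, Poldip3 now among them and Chtop not. Ddx39b was then at 0.57, Ddx39a at 0.39, Zc3h11a at 0.54 and Nxf1 at 0.17. Without Thoc5 siRNA replicate 1, 6 of 9 were above NT with Thoc5 siRNA. Nxf1 was then at 0.52, Ddx39a at 0.42 and Sarnp at -0.63, and Ddx39b was at 0.04. Without NT replicate 1 or without NT replicate 2, 6 of 9 lay above NT in both comparisons.

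**Figure D3:**
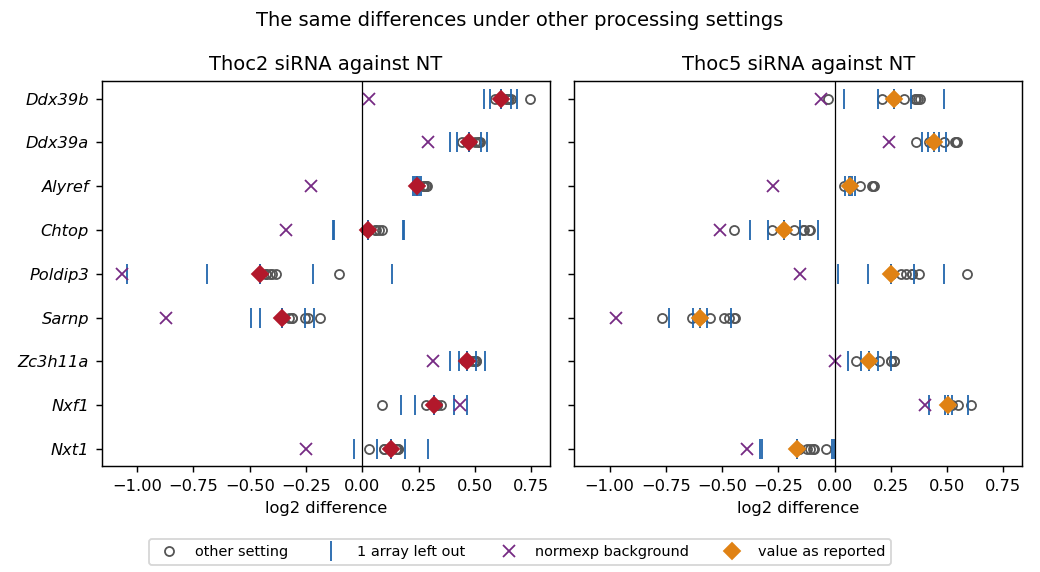
The same log2 differences recomputed under other settings, with the reported value as a filled diamond in each panel; open circles are other normalizations, filters, variance models, probe rules and slide or replicate blocks, bars leave 1 array out, and crosses use normexp. Ddx39a, Zc3h11a and Nxf1 lie at or above 0 and Sarnp lies below 0 in both panels throughout, while the crosses stand apart to the left for most genes and turn Alyref negative.

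Arrays of 2 groups shared a slide in 2 cases, Thoc2 siRNA replicate 2 with NT replicate 1 and Thoc5 siRNA replicate 2 with NT replicate 2. Within the first slide Ddx39b differed from NT by 0.64, Zc3h11a by 0.50, Ddx39a by 0.44, Alyref by 0.27, Nxf1 by 0.09 and Sarnp by -0.31. Within the second slide Nxf1 differed by 0.61, Ddx39a by 0.36, Zc3h11a by 0.10, Alyref by 0.04, Ddx39b by -0.03 and Sarnp by -0.77. The median of all genes was 0.09 within the first slide, as for Nxf1, and 0.02 within the second. These slide values come from single pairs of arrays with no replicate, and only Ddx39b with Thoc5 siRNA took the other sign among the 6 genes. With slide as a random block limma gave Ddx39b 0.59 and Ddx39a 0.46 with Thoc2 siRNA, and Nxf1 0.50, Ddx39a 0.42 and Sarnp -0.64 with Thoc5 siRNA, with adjusted p from 0.120 to 0.243.

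**Figure D4:**
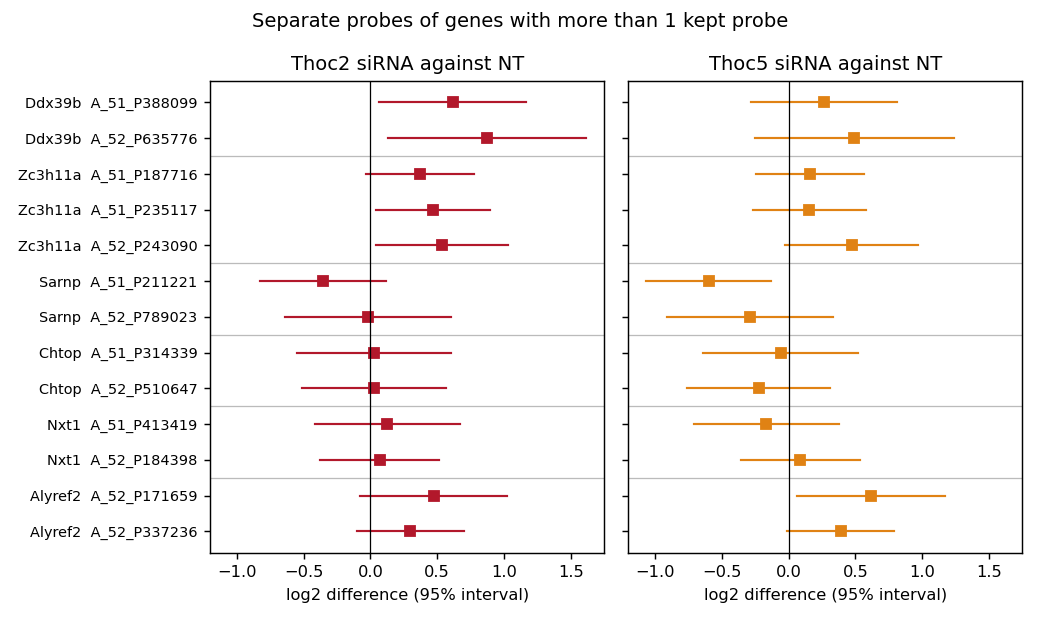
Log2 difference from NT for every kept probe of the genes with more than 1, with 95% intervals (n = 2 arrays per group); the Alyref2 rows are the probes named Refbp2, A_52_P171659 being on the opposite strand. Probes of Ddx39b and Zc3h11a lie on the same side of 0 in both panels, the Sarnp probes differ in size, and the Nxt1 probes lie on either side of 0 with Thoc5 siRNA.

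The 2 knockdowns were also set against each other. Thoc5 siRNA arrays were lower than Thoc2 siRNA arrays in mean for 7 of 9 mRNAs and higher for 2, where 35.1% of all genes were higher. The median of the 9 was -0.24, and that of all genes -0.13. The arrays did not overlap for 6 that were lower with Thoc5 siRNA (32.6% of all genes) and for 2 that were higher (13.2%), Nxf1 and Poldip3. None of the 9 had an unadjusted p under 0.05 (2.2% of all genes higher, 7% lower). The largest of these distances were 0.71 ± 0.45 for Poldip3 (95% interval -0.49 to 1.90), -0.35 ± 0.21 for Ddx39b (-0.90 to 0.20) and -0.31 ± 0.16 for Zc3h11a (-0.73 to 0.10). Ddx39a had the smallest, at -0.03 ± 0.15 (-0.42 to 0.36), which does not show that the levels were alike.

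By group means the order was Thoc2 siRNA, then Thoc5 siRNA, then NT for 4 genes (Ddx39b, Ddx39a, Alyref, Zc3h11a). Nxf1 ran Thoc5 siRNA, Thoc2 siRNA, NT, and Sarnp ran NT, Thoc2 siRNA, Thoc5 siRNA. Chtop and Nxt1 had NT between a higher Thoc2 siRNA and a lower Thoc5 siRNA group, and Poldip3 had NT between a higher Thoc5 siRNA and a lower Thoc2 siRNA group. No step between neighbouring groups in these orders passed at an adjusted p of 0.05 for any of the 9. The share of all genes in each order was not computed, so the count of 4 has no background. Between the knockdowns 35.1% of all genes were higher with Thoc5 siRNA, so most genes also had Thoc2 siRNA above Thoc5 siRNA.

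The wider export machinery, 41 genes listed by role of which 39 were tested, sat closer to the median of all genes. With Thoc2 siRNA 2 were higher and 4 lower at an unadjusted p under 0.05 (8.1% and 6.5% of all genes), and the median was 0.02. The 4 lower include Thoc2, the target of that siRNA, whose place there is no result about the list. Nxf2, a relative of Nxf1, is 1 of the 2 higher. It was well above background on both Thoc2 siRNA arrays and on none of the other 4. It was thus kept only through the group in which it was high, so neither its test nor its place in that count is used. Its mean was -4.79 with Thoc2 siRNA and -6.54 with NT siRNA, and no fold is given because no NT array detected it. Thoc6, a THO subunit, was at 0.45 ± 0.17 (adjusted p = 0.340, limma). On the other side were Thoc2 itself, Erh, a small adaptor-associated protein, at -0.50 ± 0.15 (adjusted p = 0.276) and the pore protein Nup98 at -0.47 ± 0.16 (adjusted p = 0.316). None of these passed.

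With Thoc5 siRNA 3 of the 39 were higher and 6 lower (7.45% and 12.1% of all genes), with a median of -0.07. The 6 lower likewise include Thoc5, the target of that siRNA. The THO subunit Thoc1 was at 0.79 ± 0.20 (adjusted p = 0.156), the cap-binding protein Ncbp2 at 0.53 ± 0.18 (adjusted p = 0.227) and Alyref2 at the value given above. Thoc5 itself, Erh at -0.52 ± 0.15 (adjusted p = 0.180) and the adaptor Fyttd1 (UIF) at -0.71 ± 0.20 (adjusted p = 0.181, limma) had the smallest p-values on the lower side. The 6 TREX-2 genes, whose complex sits at the pore, were below NT in both comparisons, with Pcid2 nearest to it at -0.0078 and -0.09, where 55.6% and 43.2% of all genes were above NT. Their medians were -0.14 and -0.30, and 0 of 6 had an unadjusted p under 0.05. Of the other classes, 4 of 6 THO genes were above NT in both comparisons, and so were 4 of 5 cap-binding genes and both methyltransferases. Above NT were 6 and 5 of 12 paralogs and further adaptors, and 4 and 3 of 8 pore and remodelling genes, with Thoc2 and with Thoc5 siRNA. The 12 include Nxf2, above NT in both comparisons, and Nxf3, below NT in both. Nxf3 was well above background on both NT arrays and on no other, so it too was kept only through 1 group. Both genes also enter the medians of the 39, and neither place is read as a result.

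Across the 6 arrays the levels of 19025 genes were correlated with those of Ddx39b, Alyref and Nxf1. Nip7 (r = 0.994), Rpe (0.985) and Atg2a (0.982) were most like Ddx39b, and 38 genes had an r over 0.95. For Alyref these were Ccl27a (0.998), the transcript AK037854 (0.997) and Ogg1 (0.997), among 90 genes over 0.95. For Nxf1 they were Sdf4 (0.997), Smurf1 (0.996) and Zswim9 (0.994), among 155. With 6 points that share array brightness and group, such values are a description of these arrays.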

How the data were processed

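The deposited scanner files hold spot intensities on a linear scale. Per the file headers, the processed intensity is background-subtracted and detrended within the array, made with Feature Extraction 9.5.3.1; version 11.0 is given in the submitters' processing notes. A deposited table of log2 values had the rank order of the processed intensity on each array (Spearman correlation 1, medians 5.95); its centring is not stated, and it served as an alternative.

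Levels were log2 processed intensity minus the 75th percentile of the array over 43379 non-control spots. Outlier spots were left out. A probe was kept if at least 0.5 of its spots were well above background on every array of 1 group, and a gene was given by its brightest kept probe. All 15 kept probes of the 9 genes had 1 spot each. Probes were named through the accessions and symbols of the RefSeq genes of assembly GRCm38.p6, whose coordinates were not used: of 41174 probes 22951 matched by accession, 124 by another accession, 6582 by symbol and 3077 by synonym, and 8440 kept the name in the files.

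All genes were fitted together on all 6 arrays by limma (3.58.1, lmFit and eBayes, under R 4.3.3, reading with version 1.17.8 of the data.table package), with 3 residual and 1.49 prior degrees of freedom. Adjustment followed Benjamini-Hochberg across every gene of a comparison. Errors are SE. The code was tested on simulated data. All p-values are two-sided. With 2 arrays against 2, exact permutation could not go below 0.333. Arrays hold no counts, so their number limits the precision. The members, lists and naming rule (all members; of the wider list, the 3 smallest p-values on each side; for likeness, the 3 highest correlations) were chosen with earlier results of these data known. The alternatives were normexp background correction of the mean spot signal (offset 50), other normalizations, filters, variance models and probe rules. Slide and replicate blocks and leaving out each array were further ones.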

Additional observations from a re-analysis of the deposited data

Results flagged for a closer look

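The probe A_52_P171659, named Refbp2 but on the strand opposite to the other Refbp2 probe, represents no gene in the tests above and appears only in the plot of separate probes. Its level was -2.80 and -2.60 with Thoc2 siRNA, -2.74 and -2.38 with Thoc5 siRNA, and -3.30 and -3.05 with NT siRNA. All 4 knockdown arrays were above both NT arrays, which was the condition for flagging it and held for 14.3% of all genes. The difference was 0.54 ± 0.18 on the log2 scale for both knockdowns together (adjusted p = 0.214, limma over all probes). The probe was singled out as a signal in data outside the main measurement that was above the level in the NT arrays. It was well above background on all 6 arrays.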

How the results depend on the processing

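Of 675 recomputed member differences 645 kept their direction and 30 reversed. None passed (lowest adjusted p 0.0638, limma, Ddx39a in both knockdowns with an intensity trend and robust variances). Many of the 645 could not have reversed, because the setting left the difference as reported. This held for the variance model, the filters on dim probes, the replicate block and the fit with every probe as its own row. It also held for leaving out an array of a group outside the comparison. The count of 645 therefore does not measure how firm the directions are. Under normexp the reversed values were -0.0603 (Ddx39b, Thoc5 siRNA against NT) and -0.0157 (both), -0.227, -0.273 and -0.250 for Alyref (Thoc2 siRNA, Thoc5 siRNA, both), -0.339 for Chtop and -0.248 for Nxt1 (Thoc2 siRNA), -0.152 for Poldip3 (Thoc5 siRNA) and -0.0323 for Nxf1 (Thoc5 against Thoc2 siRNA); the cause was not tested. Within a slide Ddx39b was at -0.0305 (Thoc5 siRNA) and Poldip3 at 0.243 (both). Ddx39a (Thoc5 against Thoc2 siRNA) was at 0.0176 with quantile normalization, 0.0293 with cyclic loess and 0.0163 in the deposited table. Nxt1 in both, reported at -0.0196, was at 0.0304 with quantile normalization, 0.0211 with cyclic loess, 0.0172 with the percentile over probes detected on all arrays, 0.0292 with the mean of all probes and 0.0311 in the deposited table. Leaving out 1 array at a time moved Ddx39a between -0.115 and 0.0501 (Thoc5 against Thoc2 siRNA), Chtop between -0.128 and 0.184 (Thoc2 siRNA) and between -0.250 and 0.0534 (both), Poldip3 between -1.04 and 0.134 (Thoc2 siRNA) and between -0.397 and 0.192 (both), and Nxt1 between -0.0360 and 0.291 (Thoc2 siRNA) and between -0.183 and 0.144 (both). Ddx39b with Thoc5 siRNA was at 0.0437 without Thoc5 replicate 1, and Chtop with Thoc2 siRNA was below 0 without NT replicate 1 or Thoc2 replicate 1.

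Genes called at an adjusted p of 0.05 were 0 in all 4 comparisons as reported (2817, 3775, 3722 and 1775 at an unadjusted p under 0.05, for Thoc2 siRNA, Thoc5 siRNA, both, and Thoc5 against Thoc2). An intensity trend with robust variances gave 4, 660 and 640 in the first 3, and keeping only probes well above background on all 6 arrays gave 543 with Thoc5 siRNA and 465 with both. Leaving out any 1 array gave 0 in all 4. The share of higher genes among those at an unadjusted p under 0.05 was 55.5%, 38.1%, 46.1% and 23.9% as reported, 39.8%, 44.0%, 42.9% and 54.2% with quantile normalization, and 64.8%, 51.6%, 58.8% and 51.1% with normexp; cyclic loess gave 41.5% in the last comparison. No filter on dim probes moved the median of all genes to 0.17, 0.05 and 0.12 in the first 3. The labels state no pairing of samples by replicate number. Deviations of the first replicates correlated by -0.20 (Thoc2 with NT), 0.14 (Thoc5 with NT) and 0.22 (Thoc5 with Thoc2). With 2 arrays per group these values cannot decide whether the replicates were paired. With the replicate block 0 genes were called in all 4 comparisons, and 2775, 3276, 3418 and 1520 had an unadjusted p under 0.05. The members higher at an unadjusted p under 0.05 were then 0 with Thoc2 siRNA, 0 with Thoc5 siRNA and 1 with both, against 3, 2 and 2 without the block; the lower ones were 0, 1 and 0, against 0, 1 and 1.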
